A study of Homo sapiens with 30 samples.

Results

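The cytosolic ribosomal protein genes were followed through depletion of BRD8 or TIP60 in the human colorectal cancer cell lines SW480 and HCT116. A gene was a member when its symbol in the gene tables was RPS or RPL followed by a number, with A or X allowed at the end, or RPLP0, RPLP1 or RPLP2. This rule took 76 of the 60617 listed genes, 30 of the small subunit (RPS) and 46 of the large subunit (RPL), and used no measured value. All 76 are protein-coding in GENCODE release 29.

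Each ribosomal protein is a building block of the cytosolic ribosome, the particle that translates nuclear mRNAs, and most assemble with ribosomal RNA in the nucleolus. Their mRNAs are short, abundant and transcribed from single-copy genes, although the genome also carries many processed pseudogenes of them. Most of these mRNAs begin with a C followed by a run of pyrimidines, the 5' terminal oligopyrimidine (TOP) tract, through which the TOR pathway and the RNA-binding protein LARP1 control their translation and stability. BRD8, a bromodomain protein, and TIP60, a lysine acetyltransferase whose gene is listed as KAT5, are subunits of the same chromatin complex, which acetylates histones.

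Both lines were transfected with 10 nM siRNA for 48 hours, and 100 ng of total RNA went into each library. In each line, 2 groups received an siRNA against BRD8 (siBRD8-6 or siBRD8-36), 2 groups received an siRNA against TIP60 (siTIP60-2 or siTIP60-11) and 1 group received the control siRNA (siControl). There were 3 replicates in each of the 10 groups, 30 libraries in all, and each line is a cultured line that stands for 1 tumour. Whether replicates came from separate cultures is not in the labels, and each p-value therefore reflects variation among these libraries only, which may be technical.

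In megacounts (M), expected counts summed to 7.07 M to 11.7 M in SW480 libraries and 13.4 M to 18.6 M in HCT116 libraries. The 3 SW480 siControl libraries, at 7.07 M to 7.69 M, were the shallowest of their line, and HCT116 siControl replicate 2, at 13.4 M, was the shallowest of its line. The targeted mRNAs were lower in the libraries named for them. BRD8 averaged 11.2 TPM with siBRD8-6 and 12.2 TPM with siBRD8-36, against 34.7 TPM with siControl in SW480 cells, and 8.17 and 6.33 TPM with these siRNAs, against 34.6 TPM with siControl in HCT116 cells. KAT5 averaged 4.45 TPM with siTIP60-2 and 8.27 TPM with siTIP60-11, against 34.8 TPM with siControl in SW480 cells, and 6.28 and 6.52 TPM with these siRNAs, against 55.0 TPM with siControl in HCT116 cells. Summed over 8 colorectal epithelial markers, levels were 2644 to 4504 TPM in SW480 libraries and 2503 to 5077 TPM in HCT116 libraries, while 6 fibroblast markers summed to at most 29.7 TPM and 6 leukocyte markers to at most 28.5 TPM in any library. In SW480 1 epithelial, 4 fibroblast and 1 leukocyte markers were at 0 throughout.

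The start regions of some members are shown because the TOP tract is the sequence feature that these genes share. RefSeq promoter entries (GRCh38.p14) were found for 61 of the 76 members. Each window below runs 5' to 3' on the gene's strand over 30 bases, from 10 bases before to 20 bases after an annotated start, with the longest run of C and T in capitals.
RPL9: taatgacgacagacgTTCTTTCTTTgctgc
RPS27A: ggcgTTCTTCCTTTTCgatccgccatctgc
RPL21: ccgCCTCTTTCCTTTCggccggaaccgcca
RPS3A: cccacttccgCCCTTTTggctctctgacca
RPS13: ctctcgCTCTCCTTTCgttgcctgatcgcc
RPL14: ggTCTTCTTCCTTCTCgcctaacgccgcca
RPL11: gctccgCTTTCTCTTCCTgctctccatcat
The first 5 of these genes had the largest called changes with BRD8 depletion in SW480 cells, ranked by the weaker siRNA, RPL14 differed most between the siRNAs against BRD8, and RPL11 was among the members that changed least. The windows lie at chr4:39458903-39458932 on the minus strand for RPL9, chr2:55232678-55232707 on the plus strand for RPS27A, where RefSeq lists 3 starts, and chr13:27251548-27251577 on the plus strand for RPL21. They lie at chr4:151099618-151099647 on the plus strand for RPS3A, chr11:17077648-17077677 on the minus strand for RPS13, chr3:40457329-40457358 on the plus strand for RPL14 and chr1:23691796-23691825 on the plus strand for RPL11. RefSeq lists another RPL11 start, with its window at chr1:23691769-23691798 and a longest run of only 5 pyrimidines, while all 3 RPS27A windows hold a run of at least 9.

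A run of at least 7 pyrimidines lay in the window of 54 of the 61 members (88.5%), against 23.0% of the 27305 genes with an entry. The letters CTTTC occurred on the gene's strand in 33 members (54.1%), against 5.29% of all genes, and on the other strand in 2 members and 1093 of all genes. All 7 windows shown hold a run, those of the genes that fell most and that of RPL11, which was not called. A match is a description of the letters and not evidence of a used start site.

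Ribosomal protein mRNAs were among the most abundant in every library. By mean TPM, a length-corrected share of all transcripts scaled to a fixed total, 60 of the 100 most abundant genes and 73 of the 200 most abundant genes were members. The median member averaged 2241 TPM over the 30 libraries. RPL41, which encodes the smallest protein of the ribosome, had the highest mean and ran from 5771 through a median of 8424 to 11713 TPM. RPS3, at the mRNA entry of the small subunit, followed with 3316, 5479.8 and 7793 TPM as its lowest, median and highest values. RPS18, RPL8 and RPL37A completed the 5 highest, with means of 5315, 4902 and 4341 TPM.

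The lowest members were RPS26, with a mean of 332 TPM, RPL22 with 333 TPM and RPL21 with 515 TPM. Part of the reads of such genes can be assigned to near-identical copies, and 1057 listed pseudogenes carried the names of 75 of the members. For RPL21, 114 counts went to its named pseudogenes for every 100 that went to the gene, and for RPL22 the figure was 83.4, so the levels of both are uncertain. For RPS26 it was 0.517, and the median over members was below it. The smallest expected count of any member in any library, rounded, was 771, for RPS26.

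The members were short. Their effective length, the number of positions where a read can start, had a median of 531 bases and ran from 245 bases for RPS29 to 1132 bases for RPS4X. Other genes tested in both lines had a median of 2025 bases. RPS29, RPS27 and RPS21 were the shortest members, and RPL3, RPL22 and RPS4X the longest.

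The share of a library's counts that fell on the 76 members was highest in the SW480 siControl libraries. The shares were 8.26%, 8.13% and 8.33% with siBRD8-6, 9.19%, 8.97% and 7.38% with siBRD8-36, and 10.1%, 10.5% and 10.0% with siControl in SW480 cells. With siTIP60-2 they were 7.81%, 8.12% and 8.88%, and with siTIP60-11 they were 8.60%, 8.99% and 8.99%. Every depleted SW480 library lay below every SW480 siControl library.

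The mean share was 8.38% ± 0.645 after BRD8 depletion, against 10.2% ± 0.225 with siControl in SW480 cells (SD, n = 6 and n = 3), a difference of -1.84 percentage points. After TIP60 depletion it was 8.57% ± 0.499 (SD, n = 6), a difference of -1.65 points from the same siControl libraries. Each difference had p = 0.0238 in a 2-sided exact permutation test, the smallest p that 6 against 3 libraries allow, and an adjusted p of 0.0476 over the 4 comparisons of a target and a line. Leaving out any 1 library kept the sign, with differences from -2.01 to -1.64 points for BRD8 and from -1.74 to -1.50 points for TIP60. The comparisons share their control samples, so they are not independent.

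In HCT116 cells the shares were 6.92%, 6.99% and 6.95% with siBRD8-6, 7.18%, 7.96% and 7.65% with siBRD8-36, and 7.18%, 9.50% and 6.88% with siControl. With siTIP60-2 they were 6.74%, 7.44% and 6.97%, and with siTIP60-11 they were 7.59%, 7.97% and 7.44%. HCT116 siControl replicate 2 stood apart from the other HCT116 libraries, and the depleted libraries overlapped the other controls. Means were 7.27% ± 0.433 after BRD8 depletion, 7.36% ± 0.441 after TIP60 depletion and 7.85% ± 1.43 with siControl (SD, n = 6, 6 and 3). The differences of -0.58 and -0.50 points had p = 0.5 and p = 0.571 (exact permutation test, adjusted p = 0.571 for both). Without replicate 2 of the control group they were 0.24 and 0.33 points, so their sign rested on that library.

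Between the siControl groups of the lines, the share was 10.2% ± 0.225 in SW480 and 7.85% ± 1.43 in HCT116 (SD, n = 3 each). The difference of 2.37 points had p = 0.1 in the exact permutation test, the smallest p that 3 against 3 allow, and it ran from 1.88 to 3.19 points when any 1 library was left out.

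Other short transcripts moved with these shares. Genes under 1000 bases that were neither members, their pseudogenes nor mitochondrial took 11.2% to 13.4% of the counts in depleted SW480 libraries, against 14.1% to 14.6% in SW480 siControl libraries. In HCT116 they took 9.19% to 11.2% in depleted libraries, against 9.90%, 11.9% and 9.48% in the siControl libraries, the 11.9% again in replicate 2. The length at the middle of all counts outside the members was 1813 to 2000 bases in depleted SW480 libraries, against 1783 to 1800 bases in SW480 siControl libraries. MALAT1 and NEAT1, nuclear noncoding RNAs, took 0.0595% to 0.105% of the counts in depleted SW480 libraries, against 0.113% to 0.116% in SW480 siControl libraries. Mitochondrially encoded genes took 4.02% to 4.31% with siTIP60-11 in SW480, against 2.69% to 2.80% with siControl, and 1.63% to 3.07% in depleted HCT116 libraries, against 1.57% to 1.66% with siControl. Depth moved with the groups as well, and the part of these measures or of depth in the member share was not tested. In bulk RNA, a change in how many cells express a gene and a change in its RNA per cell cannot be told apart.

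**Figure D1:**
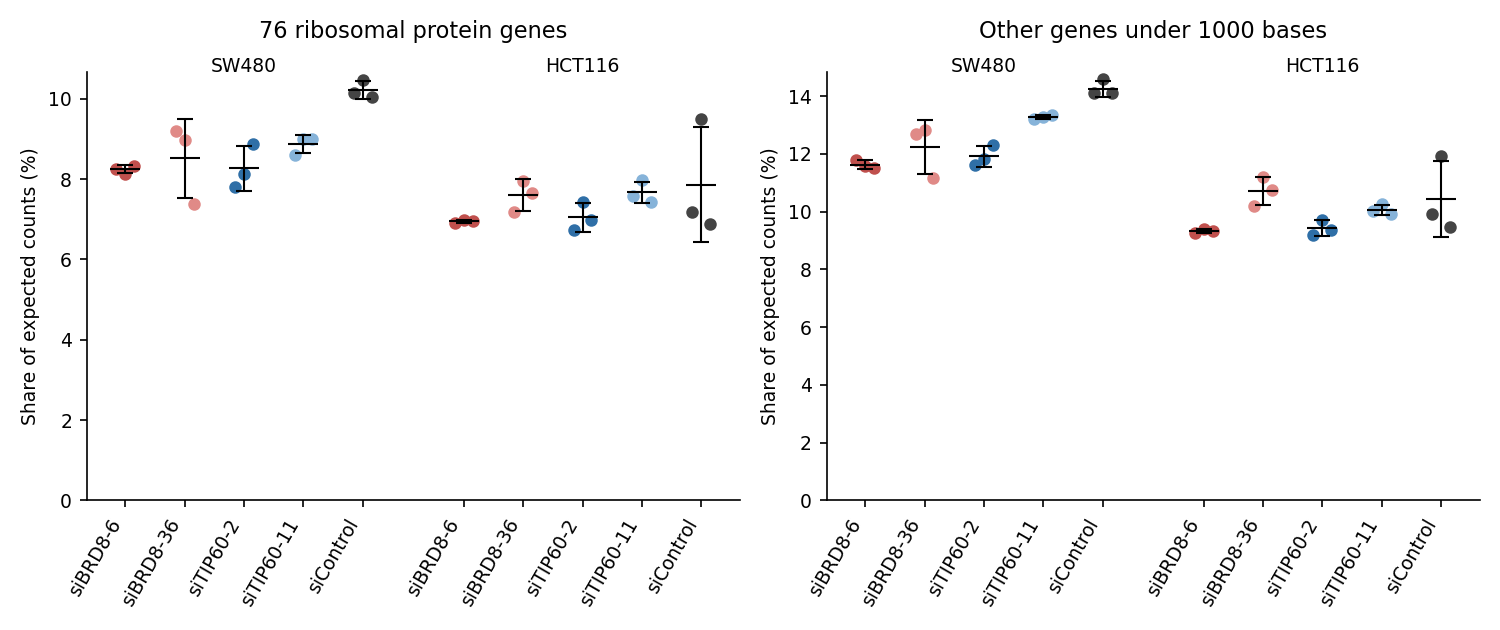
Percent of expected counts (y axis) on the 76 ribosomal protein genes (left) and on other genes under 1000 bases (right), by siRNA group (x axis); points are libraries, and bars are the mean and SD of 3. In both panels the SW480 siControl libraries lie above all depleted SW480 libraries, and HCT116 siControl replicate 2 lies above the other HCT116 libraries.

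As a share of TPM, where length is divided out, the members took 19.9% ± 1.22 after BRD8 depletion and 19.8% ± 0.819 after TIP60 depletion, against 21.9% ± 0.169 with siControl in SW480 cells (SD, n = 6, 6 and 3). Both differences kept p = 0.0238 (exact permutation test) and an adjusted p of 0.0476. In HCT116 the TPM shares were 18.2% ± 0.745 after BRD8 depletion, 18.4% ± 0.664 after TIP60 depletion and 19.4% ± 2.38 with siControl, with p = 0.357 and p = 0.548 (exact permutation test, n = 6 against 3). Between the siControl groups of the lines, 21.9% in SW480 against 19.4% in HCT116 had p = 0.4 (exact permutation test, n = 3 each). HCT116 siControl replicate 2, at 22.1%, lay above every SW480 siControl library, which ran from 21.7% to 22.0%.

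Gene by gene, on counts without a length correction, most ribosomal protein mRNAs were lower after BRD8 depletion in SW480 cells and none was called higher. A gene was called when both siRNAs moved it the same way and the larger of their 2 p-values, from edgeR's quasi-likelihood test with Benjamini-Hochberg adjustment over all genes, was below 0.05. By this rule 60 of the 76 members fell and 0 rose, beside 14% of 15277 tested genes called lower and 12.9% called higher. All 76 passed the filter on low counts in both lines. All 76 mean log2 fold changes were below 0, with a median of -0.39 and a range from -0.89 to -0.06, beside a median of -0.0036 over all genes tested. Of the small subunit genes 26 of 30 fell, with a median of -0.44, and of the large subunit genes 34 of 46 fell, with a median of -0.30. The siRNAs gave member medians of -0.39 (siBRD8-6) and -0.36 (siBRD8-36). In 69 members all 6 depleted libraries lay below all 3 siControl libraries in scaled counts, beside 18.3% of all genes. With the length trend removed, as described below, 30 members fell and 2 rose, beside 14.3% of all genes lower and 11.9% higher. On log2(TPM + 1) 16 fell and 3 rose, beside 3.59% lower and 20.6% higher.

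RPL9 and RPS27A fell most with BRD8 depletion. Levels were expressed as CPM, the usual depth-scaled counts, with library sizes scaled by TMM. RPL9, a large subunit protein (ENSG00000163682, chr4:39452521-39458949, minus strand, hg38), had 268, 259 and 217 CPM with siBRD8-6 and 256, 294 and 208 CPM with siBRD8-36, against 449, 432 and 435 CPM with siControl. The groups did not overlap. Its log2 fold change was -0.81 (SE 0.095), with an adjusted p of 0.000108 in edgeR's quasi-likelihood test. RPS27A (ENSG00000143947, chr2:55231903-55235853, plus strand), which encodes ubiquitin fused to a small subunit protein, had 1576, 1552 and 1537 CPM with siBRD8-6 and 1363, 1363 and 1002 CPM with siBRD8-36, against 2524, 2743 and 2455 CPM with siControl. All depleted libraries lay below all controls, with siBRD8-36 replicate 3 the lowest. The log2 fold change was -0.89 (SE 0.077, edgeR adjusted p = 1.26e-05).

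RPS3A, a small subunit protein at the platform side, had 2037, 2105 and 1909 CPM with siBRD8-6 and 1959.9, 1991 and 1579.8 CPM with siBRD8-36, against 3137, 3181 and 3082 CPM with siControl. Its log2 fold change was -0.70 (edgeR adjusted p = 5.56e-08). RPS13, which binds the central domain of 18S ribosomal RNA, had 684 to 729 CPM with siBRD8-6 and 647 to 829 CPM with siBRD8-36, against 1130.1 to 1232 CPM with siControl. Its log2 fold change was -0.68 (edgeR adjusted p = 6.26e-07), again with no overlap. RPL21 fell by 0.72 on the log2 scale (edgeR adjusted p = 0.000501), with the limit set by its pseudogenes.

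RPL14 differed between the siRNAs against BRD8. This large subunit gene had 724, 750.0 and 724 CPM with siBRD8-6 and 1438, 1463 and 1169.8 CPM with siBRD8-36, against 1599, 1627 and 1603 CPM with siControl in SW480 cells. The log2 fold change was -1.14 with siBRD8-6 and -0.25 with siBRD8-36. In HCT116 cells RPL14 had 461, 449 and 461 CPM with siBRD8-6 and 892, 883 and 972 CPM with siBRD8-36, against 850.3, 1099 and 889.5 CPM with siControl. The log2 fold changes there were -1.05 and -0.05, and the gene was not called because only the siBRD8-6 libraries lay apart from the controls. The difference between these siRNAs was not tested.

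On the same counts, members were also lower after TIP60 depletion in SW480 cells and none was called higher. In all, 40 of 76 fell, beside 12.1% of the 15277 tested genes called lower and 11.5% called higher. The median log2 fold change was -0.31, beside 0.01 over all genes tested, and all 76 values were below 0. Of the small subunit genes 15 of 30 fell, and of the large subunit genes 25 of 46 fell. The member median was -0.42 with siTIP60-2 and -0.21 with siTIP60-11, and this gap between the siRNAs was not tested. In 64 members all depleted libraries lay below all siControl libraries, beside 17.7% of all genes. The count of calls, all lower, was 23 without SW480 siControl replicate 2 and 25 without SW480 siTIP60-11 replicate 1. Of all genes, 9.99% and 10.5% were then lower. The highest count was 56, without SW480 siBRD8-36 replicate 3, beside 13.1%. Over all left-out libraries the median stayed between -0.35 and -0.28. With the length trend removed, as described below, 36 members fell and 0 rose, beside 13.4% of all genes lower and 10.3% higher. On log2(TPM + 1) 16 fell and 1 rose, beside 3.02% lower and 14.2% higher.

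RPS21, a small subunit protein needed in yeast to mature the 3' end of 18S ribosomal RNA, had 747, 801 and 887 CPM with siTIP60-2 and 807, 879 and 849 CPM with siTIP60-11, against 1298, 1496 and 1285 CPM with siControl. Its log2 fold change was -0.72 (SE 0.123, edgeR adjusted p = 0.00477), with no overlap. RPL9 had 232, 259 and 267 CPM with siTIP60-2 and 263, 304 and 259 CPM with siTIP60-11, beside the same siControl values as above, a log2 fold change of -0.73 (edgeR adjusted p = 0.000549). RPS27A had 1256, 1368 and 1436 CPM with siTIP60-2 and 1783, 1897 and 1839.6 CPM with siTIP60-11. Both sets lay below the siControl libraries, the siTIP60-11 set less far, and the mean log2 fold change was -0.71 (edgeR adjusted p = 0.000766). RPL21 fell by 0.66 on the log2 scale and RPL13A, a protein also known to act in translational silencing, by 0.49 (edgeR adjusted p = 0.00357 and 0.002).

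Of the 76 members, 36 fell with both targets in SW480, 24 were called for BRD8 alone, 4 for TIP60 alone and 12 for neither. The 4 were RPL3, RPL4, RPL6 and RPL10, and the 12 were RPL8, RPL11, RPL22, RPL23, RPL28, RPL29, RPL36, RPLP1, RPS2, RPS15, RPS26 and RPS28, names given because of these calls. The targets share their control libraries, and a call for 1 target and not the other does not show a difference. RPS2 had log2 fold changes of -0.06 for BRD8 and -0.05 for TIP60.

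The ribosomal stalk proteins recruit elongation factors. RPLP0 had log2 fold changes of -0.33 for BRD8 and -0.18 for TIP60 in SW480 (edgeR adjusted p = 0.000831 and 0.0416), and RPLP2 had -0.27 and -0.42 (edgeR adjusted p = 0.0269 and 0.00282). RPLP1 had -0.26 and -0.21 and was called for neither, although these values lie near those of RPLP0 and RPLP2, and no difference between the genes was tested. RPL5 and RPL11, which bind 5S ribosomal RNA and together restrain MDM2, differed in their calls: RPL5 fell with both targets and RPL11 was called for neither.

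RPL5 had 1464 to 1538 CPM with siBRD8-6, 1157 to 1407 with siBRD8-36, 1339 to 1502 with siTIP60-2 and 1651 to 1704 with siTIP60-11, against 2033 to 2182 CPM with siControl. It fell by 0.57 for BRD8 and by 0.45 for TIP60 on the log2 scale (edgeR adjusted p = 8.18e-07 and 0.000187). RPL11 had 702 to 706 CPM with siBRD8-6, 695 to 829 with siBRD8-36, 683 to 759.7 with siTIP60-2 and 769.7 to 833 with siTIP60-11, against 756 to 800.1 CPM with siControl. These overlapped, with log2 fold changes of -0.07 and -0.04.

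RPS6, the substrate of the S6 kinases, fell by 0.64 for BRD8 and by 0.47 for TIP60 (edgeR adjusted p = 9.55e-06 and 0.00203). RPS19 and RPS14, genes of inherited and acquired anaemia, fell by 0.42 and 0.52 for BRD8 and by 0.40 and 0.44 for TIP60 on the log2 scale (edgeR adjusted p = 0.00721 and 0.0013 for BRD8, 0.017 and 0.0247 for TIP60). RPL41, the most abundant member, fell by 0.46 for BRD8 and by 0.40 for TIP60 (edgeR adjusted p = 0.00372 and 0.0178). RPS4X fell by 0.23 for BRD8 (edgeR adjusted p = 0.0116) and had -0.17 for TIP60, which was not called.

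**Figure D2:**
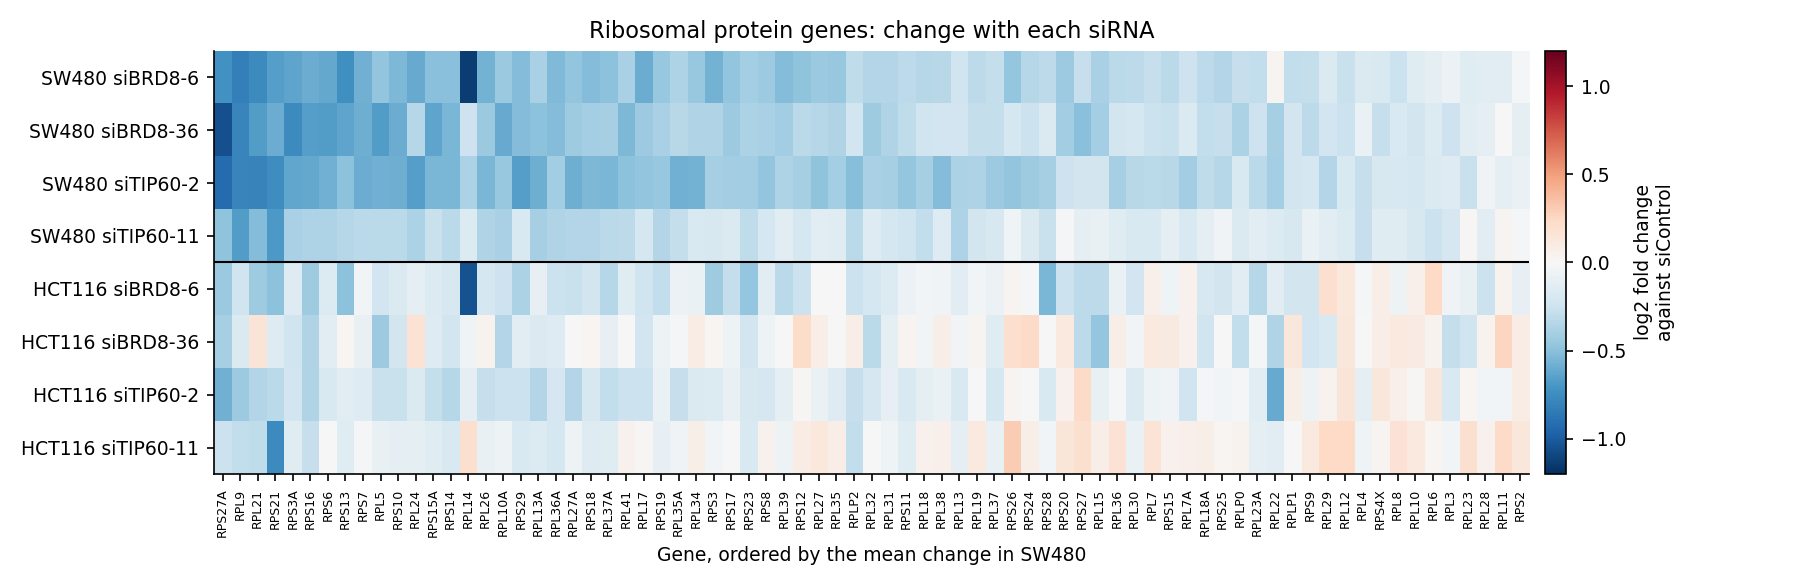
Log2 fold change against siControl (colour) of 75 of the 76 ribosomal protein genes (x axis, ordered by the mean change in SW480) with each siRNA in each line (y axis). The upper 4 rows, SW480, are blue almost throughout, the lower 4 rows, HCT116, are mixed, and RPL14 stands apart with siBRD8-6 in both lines.

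In HCT116 cells few members were called by the rule that asks for both siRNAs, which does not show that the others were unchanged. With BRD8 depletion 2 of 76 fell and 0 rose, beside 12.2% of 15919 tested genes called lower and 12.2% called higher. The members' median log2 fold change was -0.13, beside -0.02 over all genes tested, and 57 values lay below 0. The median was -0.17 with siBRD8-6 and -0.01 with siBRD8-36. In 3 members all depleted libraries lay below all siControl libraries, beside 14.7% of all genes.

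The 2 that fell were RPL15 and RPL5. RPL15, a large subunit protein, had 949, 929 and 986 CPM with siBRD8-6 and 854, 843 and 891 CPM with siBRD8-36, against 1092, 1367 and 1108 CPM with siControl. The groups did not overlap, and the log2 fold change was -0.39 (SE 0.060, edgeR adjusted p = 0.0019). RPL5 had 1194, 1212 and 1207 CPM with siBRD8-6 and 1021, 1057 and 1055 CPM with siBRD8-36, against 1295, 1670.3 and 1263 CPM with siControl, a log2 fold change of -0.33 (edgeR adjusted p = 0.0411). For both genes siControl replicate 2 was the highest library of its group. Without it RPL15 had a log2 fold change of -0.28 and was still called, whereas RPL5 had -0.19 and was not. RPL5 also lost its call in 11 of the other 14 cases of leaving out a library.

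With TIP60 depletion in HCT116, 0 of 76 members were called by edgeR in either direction, beside 14.1% of all genes called lower and 13.7% called higher. At an unadjusted p below 0.05 there was 1, and DESeq2 called 1. The median was -0.09, beside -0.03 over all genes tested, and 51 values lay below 0. In 0 members all depleted libraries lay below all siControl libraries, beside 17% of all genes. The lowest value, named after it was seen, was that of RPS21, at -0.54, with 345, 387 and 367 CPM with siTIP60-2 and 265, 285 and 261 CPM with siTIP60-11, against 379, 634 and 361 CPM with siControl. The siTIP60-2 libraries overlapped the controls.

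HCT116 siControl replicate 2 decided the side on which the HCT116 members fell. Without it the median was 0.08 for BRD8, with 8 members called higher and 1 lower, beside 12.5% of all genes higher and 12.6% lower. For TIP60 it was 0.11, with 11 higher and 0 lower, beside 14% higher and 14.4% lower. Over all left-out libraries the medians ran from -0.22 to 0.08 for BRD8 and from -0.17 to 0.11 for TIP60.

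The difference between depletion of BRD8 and of TIP60 was taken directly in edgeR. Control libraries are not part of this contrast, although they share its filter, scaling and estimate of the spread. In SW480 3 members were higher and 19 lower after BRD8 than after TIP60 depletion, beside 29.7% of all genes higher and 30.2% lower, and the median was -0.05. On the length-corrected scales given below, more members were called higher than lower. RPL4, RPLP2 and RPL13 were higher, by 0.15, 0.15 and 0.14 on the log2 scale (edgeR adjusted p = 0.000828, 0.0194 and 0.0189), and RPLP2 and RPL13 each lost the call in 5 of 15 cases of leaving out a library. RPL14, RPS20 and RPS13 were lower, at -0.42, -0.29 and -0.26 (edgeR adjusted p = 9.08e-09, 0.000593 and 0.000146), and the RPL14 value came mainly from siBRD8-6.

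In HCT116 1 member was higher and 9 lower after BRD8 than after TIP60 depletion, beside 30% of all genes higher and 31.7% lower. RPL7A was higher by 0.14 (edgeR adjusted p = 0.0352) but lost its call in 9 of 15 cases of leaving out a library. RPL14, RPS27 and RPL15 had -0.59, -0.52 and -0.38 (edgeR adjusted p = 1.83e-08, 0.00018 and 1.72e-06). RPS27, a zinc-finger protein of the small subunit, had 381, 333 and 361 CPM with siBRD8-6 and 354, 320.4 and 399 CPM with siBRD8-36, against 499, 531 and 530.5 CPM with siTIP60-2 and 459, 572 and 494 CPM with siTIP60-11. The sets did not overlap. With HCT116 siControl replicate 2 left out, 9 members were higher and 22 lower in this line, beside 31.1% of all genes higher and 32.7% lower.

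Whether the responses differed between the lines was tested as an interaction over all 30 libraries. For BRD8 14 members had a lower response in SW480 than in HCT116 and 0 a higher one, beside 12.5% of 17411 tested genes lower and 21.9% higher. The median difference was -0.21, beside 0.10 over all genes tested. For TIP60 14 were lower and 0 higher, beside 13.1% and 18%, with a median of -0.21 beside 0.06 over all genes. RPL9, RPL21 and RPS7 had the largest called BRD8 differences, at -0.54, -0.51 and -0.45 (edgeR adjusted p = 0.0223, 0.0396 and 0.000877). RPL29 and RPS6 had TIP60 differences of -0.35 and -0.34 (edgeR adjusted p = 0.00762 and 0.0339). On log2(TPM + 1) in limma, 7 members were higher and 4 lower for BRD8, beside 4917 of 17411 genes higher and 1025 lower. For TIP60 1 was higher and 1 lower, beside 4186 genes higher and 948 lower. On that scale RPL29 and RPS6 had -0.16 and -0.16 and RPL9 had -0.39, and all 3 lost their calls (adjusted p = 0.134, 0.141 and 0.0755). The counts of 14 in edgeR depended on single libraries. Without HCT116 siControl replicates 1, 2 or 3 they were 8, 61 and 7 for BRD8, beside 12.1%, 13.4% and 12.5% of all genes lower. For TIP60 they were 6, 73 and 7, beside 12.3%, 14.3% and 12.5%. Without SW480 siControl replicates 2 or 3 they were 9 and 33 for BRD8, beside 11.3% and 17%. For TIP60 they were then 8 and 22, beside 11.7% and 15.3%. For BRD8 the count was 25 without SW480 siBRD8-36 replicate 1 and 38 without SW480 siTIP60-11 replicate 1, beside 13.3% and 18.4%. For TIP60 it was 7 and 9 without HCT116 siTIP60-2 replicates 2 or 3, beside 12.3% and 12.3%. It was 8 without HCT116 siTIP60-11 replicate 2, beside 12.3%, and 9 and 8 without SW480 siTIP60-2 replicates 1 or 2, beside 12.4% and 12%. RPL21 lost its call in 7 of 30 such cases, RPS6 in 5 and RPL9 in 2.

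The siControl libraries of the 2 lines also differed. Depth went with line, at 7.07 M to 7.69 M counts in SW480 against 13.4 M to 17.8 M in HCT116 siControl libraries. A difference between the cells cannot be told apart from one between library batches or depths. The counts that follow carry no length correction, and those with it are given below. In SW480 siControl against HCT116 siControl 41 members were higher and 14 lower, beside 37% of all genes higher and 41.5% lower. The median was 0.28, beside -0.08 over all genes tested, and 0.49 without HCT116 siControl replicate 2. Of the small subunit genes 18 were higher and 3 lower, and of the large subunit genes 23 were higher and 11 lower.

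RPS7, which also binds MDM2, had 5689, 5408 and 5402 TPM in SW480 and 1973, 2249 and 2028 TPM in HCT116 siControl libraries, with a log2 fold change of the counts of 1.67 (SE 0.085, edgeR adjusted p = 9.1e-17). RPS21 had 4712, 5220.5 and 4669 TPM in SW480 and 1866, 2689.9 and 1779 TPM in HCT116, and RPL39, at the exit tunnel, had 4228, 4064 and 4218 TPM in SW480 and 1616, 2283 and 1663 TPM in HCT116. Their log2 fold changes were 1.47 and 1.43 (edgeR adjusted p = 5.14e-08 and 3.29e-09), and for all 3 genes the lines did not overlap.

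RPS2, RPL3 and RPL13 were lower in SW480. RPS2, at the mRNA entry site, had 2589, 2438 and 2634 TPM in SW480 and 5173, 6051 and 5145 TPM in HCT116, and RPL3, next to the peptidyl transferase centre, had 1699, 1654 and 1726 TPM in SW480 and 3126, 3346 and 3234 TPM in HCT116. RPL13 had 2089, 2014 and 2109 TPM in SW480 and 3689.6, 4313 and 3548 TPM in HCT116. The log2 fold changes of the counts were -0.82, -0.71 and -0.58 (edgeR adjusted p = 8.19e-09, 1.9e-12 and 0.00011), and no SW480 value reached an HCT116 value.

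**Figure D3:**
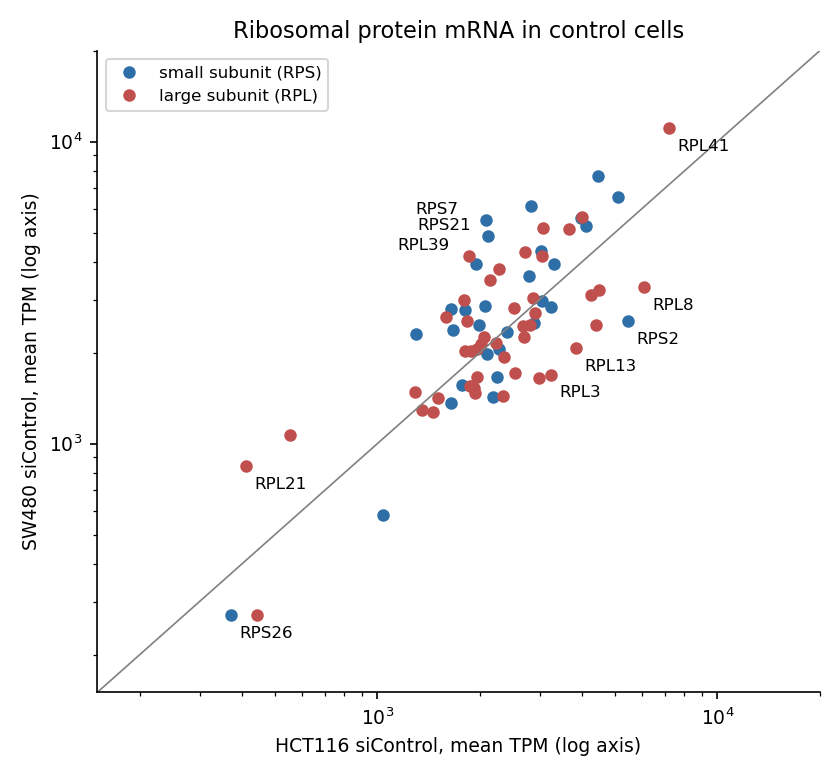
Mean TPM of 3 siControl libraries in SW480 (y axis) against HCT116 (x axis) for the 76 ribosomal protein genes, both axes logarithmic, with the line of equal levels. RPS7, RPS21 and RPL39 lie above the line, and RPS2, RPL3 and RPL13 below it.

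The changes in SW480 depended on gene length among all genes, not in the members alone. Among non-members, the median log2 fold change after BRD8 depletion was -0.56 under 300 bases of effective length, -0.33 from 300 to 500, -0.19 from 500 to 1000, -0.03 from 1000 to 2000, 0.06 from 2000 to 4000 and 0.19 above 4000 bases. The members had -0.45 for the 2 under 300 bases, -0.41 for 27 genes from 300 to 500, -0.39 for 43 genes from 500 to 1000 and -0.21 for 4 genes from 1000 to 2000. The members were thus lower than other genes of their class except in the shortest class.

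After TIP60 depletion in SW480 the non-member medians were -0.42, -0.21, -0.16, -0.06, 0.06 and 0.22 over the same classes, and the members had -0.30, -0.33, -0.30 and -0.18 in the first 4. In HCT116 the non-member medians ran only from -0.08 to 0.02 for BRD8 and from -0.09 to 0.02 for TIP60. Across the 76 members, log2 fold change and log2 length had a Pearson correlation of 0.20 for BRD8 and 0.18 for TIP60 in SW480, and across non-members it was 0.21 for both. These are correlations across genes measured in the same libraries, and genes are not independent replicates.

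The length trend of each library, read at the members' median length from non-members, was 0.18 to 0.23 (log2) in the SW480 siControl libraries. It was -0.21 to 0.06 with siRNAs against BRD8, -0.14 to -0.01 with siTIP60-2 and 0.11 to 0.17 with siTIP60-11. In HCT116 siControl replicate 2 it was 0.28, beside 0.00173 and -0.06 in replicates 1 and 3.

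**Figure D4:**
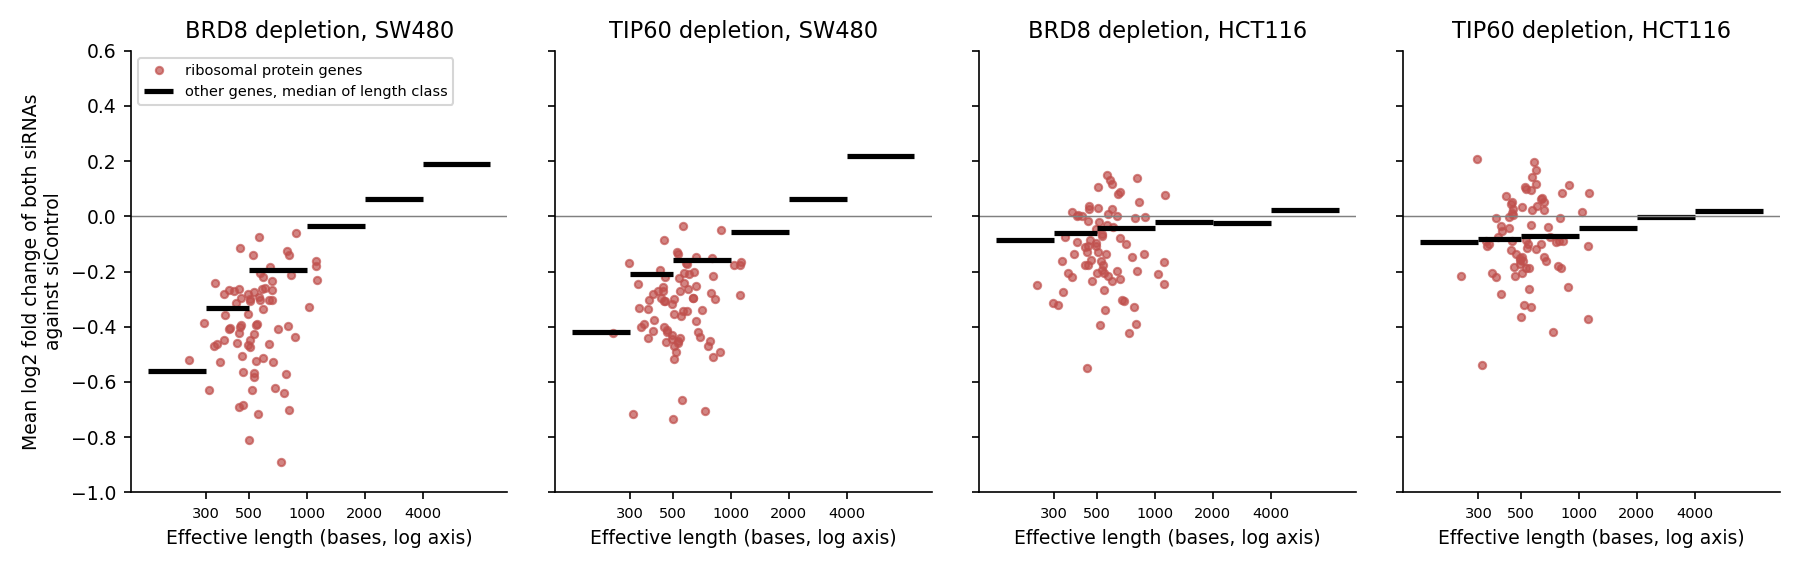
Mean log2 fold change of both siRNAs against siControl (y axis) by effective length in bases (x axis, logarithmic) for the 76 ribosomal protein genes (points) in each target and line; black lines are medians of other genes in 6 length classes, the outer classes drawn to the edge. In SW480 the black lines climb from -0.56 to 0.19 for BRD8 and from -0.42 to 0.22 for TIP60, and most points lie at or below them.

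When that trend was removed as an offset, fewer SW480 members were called. For BRD8 30 fell and 2 rose, beside 14.3% of all genes lower and 11.9% higher, with a median of -0.13. For TIP60 36 fell and 0 rose, beside 13.4% lower and 10.3% higher, with a median of -0.14 beside -0.01. RPL9 and RPS27A still had -0.56 and -0.71 for BRD8 and -0.56 and -0.56 for TIP60, and all 5 leading members of each target remained called. On log2(TPM + 1), tested with limma, 16 fell and 3 rose for BRD8, beside 3.59% of all genes lower and 20.6% higher. For TIP60 16 fell and 1 rose, beside 3.02% lower and 14.2% higher. The member medians on that scale were -0.11 and -0.10, beside 0.23 and 0.18 over all genes tested. The member median was thus below that of all genes on each of the 3 scales in SW480, while its size and the number of calls depended on the scale.

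For the control cells the length offset gave 32 members higher and 37 lower in SW480, beside 39.9% of all genes higher and 39.4% lower, with a median of -0.09. On log2(TPM + 1) 34 were higher and 27 lower, beside 27.6% higher and 46.8% lower, with a median of 0.08 beside -0.25 over all genes. RPS7, RPS21 and RPL39 stayed higher, by 1.26, 0.96 and 0.93 with the offset, and RPS2, RPL3 and RPL13 lower, at -1.04, -0.84 and -0.92. For the interactions, the offset gave 34 members lower for BRD8 and 45 for TIP60, beside 19.7% and 18.8% of all genes. On log2(TPM + 1) the BRD8 interaction gave 7 members higher and 4 lower, beside 4917 of 17411 genes higher and 1025 lower. The TIP60 interaction gave 1 higher and 1 lower there, beside 4186 genes higher and 948 lower. The direction of the called BRD8 differences thus depended on the scale. For BRD8 against TIP60 in SW480, the offset gave 21 members higher and 18 lower, with a median of 0.01. Of 15277 genes, 4812 were higher and 4658 lower. On log2(TPM + 1) 16 members were higher and 8 lower, with a median of 0.02, beside 4460 genes higher and 3079 lower.

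**Figure D5:**
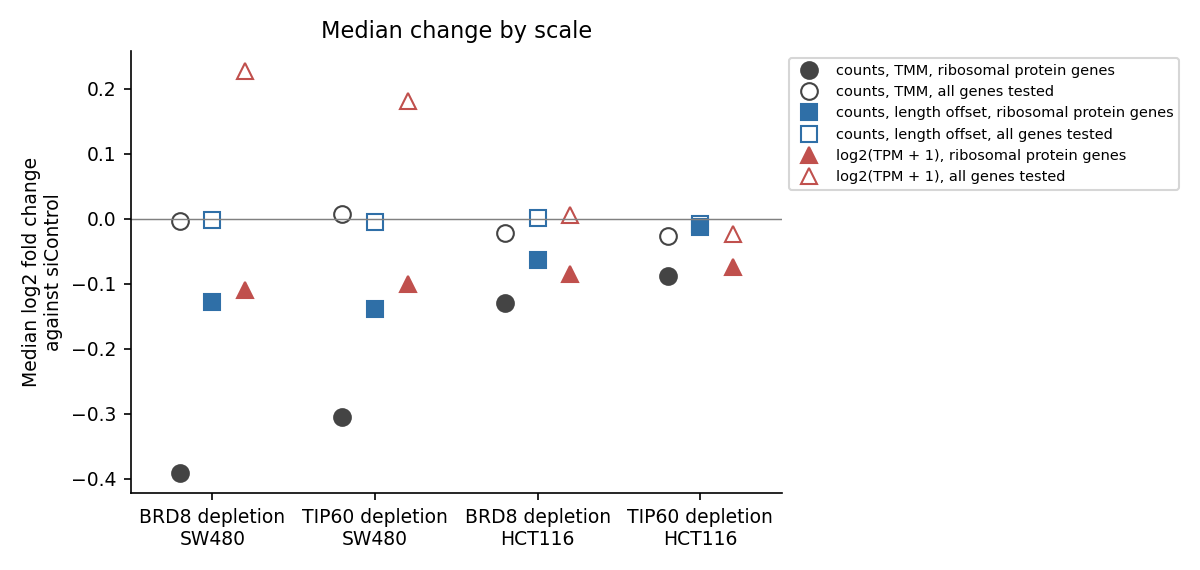
Median log2 fold change against siControl (y axis) of the 76 ribosomal protein genes (filled) and of all genes tested (open) for each target and line (x axis) on 3 scales. In SW480 the filled symbols lie below the open ones on each scale, at -0.39, -0.13 and -0.11 for BRD8 and -0.31, -0.14 and -0.10 for TIP60.

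Related genes were counted from lists, to be read beside the shares of all genes called, which were 14% lower and 12.9% higher for BRD8 and 12.1% and 11.5% for TIP60 in SW480, and 12.2% and 12.2% for BRD8 and 14.1% and 13.7% for TIP60 in HCT116. Of RPSA, FAU and RACK1, ribosomal proteins whose symbols fall outside the pattern, 2 of 3 fell with BRD8 and 3 of 3 with TIP60 depletion in SW480, with medians of -0.38 and -0.31, and 0 of 3 were called in HCT116. RPSA had -0.43 and -0.31 in SW480 (edgeR adjusted p = 7.84e-06 and 0.00102). Of 5 tested paralogs, 4 fell with BRD8 and 1 with TIP60 in SW480 (medians -0.45 and -0.02), among them RPL22L1, a paralog of RPL22, at -0.87 for BRD8. In HCT116 RPS27L, a known p53 target, rose by 0.76 for BRD8 and by 0.67 for TIP60 (edgeR adjusted p = 0.00791 and 0.000131).

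Of 7 snoRNA host genes with TOP transcripts, 7 fell with BRD8 and 4 with TIP60 in SW480, with medians of -0.67 and -0.59. Their median effective length was 532 bases, and the part of length was not tested. Non-members in SW480 had medians of -0.33 and -0.21 from 300 to 500 bases, and -0.19 and -0.16 from 500 to 1000 bases. SNHG1 had -1.47 and -0.72, ZFAS1 -0.77 and -0.76, and GAS5 -0.65 and -0.59. In HCT116 1 of 7 fell with each target. Of 16 translation factors of TOP mRNAs, 7 fell and 2 rose with BRD8 and 5 fell with TIP60 in SW480 (medians -0.18 and -0.12), and in HCT116 6 fell and 1 rose with BRD8 and 2 fell and 1 rose with TIP60. TPT1 had -0.57 and EEF1A1, an elongation factor, -0.41 for BRD8 in SW480, while PABPC1, the poly(A)-binding protein, rose by 0.25.

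Mitochondrial ribosomal proteins, which serve the separate ribosome of the organelle, gave 26 of 77 lower and 0 higher with BRD8, and 25 lower and 0 higher with TIP60 in SW480. Their medians were -0.24 and -0.23, with a median effective length of 956 bases. In HCT116 9 rose and 2 fell with BRD8, and 20 rose and 4 fell with TIP60. Of 8 chaperones, 2 fell with BRD8, and 3 fell and 1 rose with TIP60 in SW480 (medians -0.16 and -0.27). Of 8 genes of the TOR and MYC axis, 2 rose with BRD8, and 3 rose and 1 fell with TIP60 in SW480 (medians 0.16 and 0.23), and MTOR had 0.25 and 0.61 (edgeR adjusted p = 0.0233 and 2.53e-06). In HCT116 2 of the 8 rose and 1 fell with BRD8, and 4 rose and 1 fell with TIP60 (medians 0.23 and 0.32). The median effective length of the 8 was 3761 bases. Non-members in SW480 had medians of 0.06 for both targets from 2000 to 4000 bases, and 0.19 and 0.22 above 4000 bases. The part of length was not tested.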

How the data were processed

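RNA-seq was measured in 30 libraries (total RNA, strand-specific kit, 60-base single reads, per the labels). Trimmomatic 0.33, STAR 2.7.3a and RSEM 1.3.3 with hg38 were used, per the submitters' processing notes; which annotation release and strand setting went into RSEM is not known here. Per the file headers, the deposited tables hold expected counts, which divide ambiguous reads between genes, the TPM derived from them, and effective lengths. Expected counts were rounded and tested in edgeR 4.0.16 (R 4.3.3; robust quasi-likelihood, TMM scaling, filterByExpr) with 15 libraries per line, and with all 30 for interactions and between lines. The length offset was a lowess fit (span 0.3) of log2 CPM on length over non-members. Shares were compared by exact 2-sided permutation (scipy 1.17.1). Alternatives used DESeq2 1.42.0 and limma 3.58.1 on log2(TPM + 1) and log2(TPM + 0.1). Fits were tested on simulated data with a fixed spread and no length trend, and the limit for recovered changes was lowered after the first run. These simulations do not bear on the length trends.

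Members and lists were chosen with earlier results of these data known. Named members were, per comparison and direction, up to 5 called members with the largest change in the weaker siRNA (3 for other contrasts), the extremes of level and length, and fixed roles. Of the paralog list, 1 gene was not used, and some items are not reported here. Replicates of a group differed by 1.47 to 21.3 chi-square units per gene over 30 pairs, so all were counted as separate libraries. This check cannot tell separate cultures from repeated preparations of the same RNA. Counting error alone is covered by depth, with no molecular identifiers.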

Additional observations from a re-analysis of the deposited data

Results flagged for a closer look

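The response to BRD8 depletion differed between SW480 and HCT116 in 14 members by the interaction test in edgeR, and the response to TIP60 depletion in 14, each time lower in SW480. Each 14 was 18.4% of the members. Of all 17411 genes tested, 12.5% were lower and 21.9% higher for BRD8, and 13.1% and 18% for TIP60. On log2(TPM + 1) in limma the BRD8 response was higher in SW480 in 7 members and lower in 4, beside 4917 genes higher and 1025 lower. The TIP60 response was higher in 1 and lower in 1 there, beside 4186 genes higher and 948 lower. The named members are listed here because their responses in the lines differed in the edgeR test. For BRD8 the SW480 minus HCT116 difference on the log2 scale was -0.54 for RPL9, -0.51 for RPL21 and -0.45 for RPS7. For TIP60 it was -0.35 for RPL29 and -0.34 for RPS6. HCT116 siControl replicate 2, whose member share was 9.50% against 7.18% and 6.88% in the other controls, enters every one of these differences, and its part was measured by leaving it out: RPL9 then had -0.78, RPL21 -0.78, RPS7 -0.57, RPL29 -0.44 and RPS6 -0.50. On log2(TPM + 1) in limma they were smaller, at -0.39 for RPL9, -0.34 for RPL21, -0.23 for RPS7, -0.16 for RPL29 and -0.16 for RPS6, and RPL9, RPL29 and RPS6 were no longer called.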

How the results depend on the processing

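Main counts of called members were 60 and 40 for BRD8 and TIP60 depletion and 22 for BRD8 against TIP60 in SW480, 2, 0 and 10 for the same comparisons in HCT116, 14 and 14 for the BRD8 and TIP60 differences between lines, and 55 between control lines. Those that moved by over 1.5 times are given here, and the cause was not tested. In SW480, log2(TPM + 1) and log2(TPM + 0.1) each gave 19 for BRD8 (16 lower, 3 higher) and 17 for TIP60 (16 lower, 1 higher). Of all genes, 3.59% and 3.02% were lower on log2(TPM + 1), and 3.5% and 2.96% on log2(TPM + 0.1). The length offset gave 32 for BRD8 (30 lower, 2 higher) and 39 for BRD8 against TIP60 (18 lower, 21 higher). With it 14.3% and 30.5% of all genes were lower. In HCT116, BRD8 gave 8 with no filter, 5 on both TPM scales and 1 with only the groups compared, all lower. With the offset it gave 7 (5 lower, 2 higher). Of all genes, 5.52%, 6.9% and 6.53%, 11% and 12.9% were lower. TIP60 gave 1 higher with DESeq2, 2 lower with no filter, and 2 on both TPM scales (1 lower, 1 higher). With the offset it gave 6 (1 lower, 5 higher), beside 2408 of 15919 genes lower and 2562 higher. BRD8 against TIP60 gave 16 with no filter (13 lower, 3 higher) and 19 on both TPM scales (11 lower, 8 higher). It gave 31 with the offset (25 lower, 6 higher) and 31 with only the groups compared (23 lower, 8 higher). Of all genes, 14.7%, 23.9% on both TPM scales, 32.6% and 34.3% were lower. The BRD8 difference between lines gave 37 with DESeq2, 31 with DESeq2 size factors, 34 with no filter and 40 with the stricter filter. With the offset it gave 34. All were lower, beside 17.2%, 16.5%, 7.64%, 19.6% and 19.7% of all genes. The TIP60 difference gave 23, 32, 24 and 45 with DESeq2, no filter, the stricter filter and the offset. All were lower, beside 17.1%, 6.94%, 17.6% and 18.8% of all genes. On both TPM scales the TIP60 difference gave 2 (1 lower, 1 higher), beside 5.44% and 4.76% of all genes lower. The BRD8 difference moved less in number there, but most calls were higher. It gave 4 lower and 7 higher on log2(TPM + 1), and 4 lower and 6 higher on log2(TPM + 0.1). Of 17411 genes, 5.89% and 4.97% were lower, and 4917 and 4582 were higher. Leaving out 1 library gave 1 to 9, 0 to 11 and 7 to 31 in HCT116 for BRD8, TIP60 and BRD8 against TIP60. Of all genes, 10.4% to 12.6%, 11.9% to 14.4% and 29.6% to 32.7% were then lower. For TIP60 in SW480 it gave 23 to 56, beside 9.96% to 13.1% lower. For the BRD8 and TIP60 differences between lines it gave 7 to 61 and 6 to 73, beside 11.3% to 18.4% and 11.6% to 16.2% lower. Leaving out 1 library moved the share differences in HCT116 between -1.07 and 0.24 points for BRD8 and between -0.98 and 0.33 points for TIP60. In SW480 it moved them between -2.01 and -1.64 and between -1.74 and -1.50 points, where fewer libraries cannot reach the threshold after adjustment.

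Replicate numbers were not taken as pairs, since the labels do not say that a number marks a shared culture or day. Correlations of deviations were above 0.1 in 14 of 30 pairs in HCT116 (-0.06 to 0.23, median 0.09). In SW480 they were above 0.1 in 2 of 30 pairs (-0.17 to 0.14, median -0.006). In HCT116 replicate 2 had the highest member share in all 5 groups, whereas in SW480 the replicate with the highest share varied between groups. This was noticed after the fact, and whether libraries with the same number share anything was not tested. With replicate number as a block, 56 members were lower for BRD8 and 36 for TIP60 in SW480, beside 13.5% and 11.6% of all genes. BRD8 against TIP60 there gave 19 lower and 3 higher, beside 29.6% lower. In HCT116 6 were lower for BRD8, beside 12.8%, and 1 was higher for TIP60, beside 2289 of 15919 genes. BRD8 against TIP60 there gave 12 lower and 3 higher, beside 32.3% lower. The differences between lines gave 22 and 17 lower, beside 12.9% and 13.4%. Between control lines 41 were higher and 11 lower, beside 6179 of 17411 genes higher and 40.2% lower. The lowest member count in any library was 771, and each line had 3 control libraries.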
